A study of Mus musculus with 16 samples.

Results

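The 10 genes described here encode interferon-gamma inducible GTPases of the mouse. They are Irgm1, Irgm2, Igtp, Iigp1, Tgtp2 and Gm4841 of the immunity-related GTPase (IRG) family and Gbp2, Gbp3, Gbp6 and Gbp7 of the guanylate-binding protein (GBP) family. They were taken by symbol from the 55385 genes of the count table, and 10 of 10 were found. The list was chosen by the measured values themselves, since these genes had been seen to be lower during fasting in the same libraries. Their fasting against fed values are therefore a description. The fold and Fisher rule of the study's methods serves below only to mark and count them, no p-value of theirs is given for this contrast, and nothing is read from the counts. The study profiled 8 tissues (spleen, lung, liver, kidney, heart, muscle, and brown and white adipose) by short-read RNA-Seq under fasting and fed conditions. All animals were male C57BL/6 mice without any gene modification, obtained at 12 weeks of age and acclimatised for at least 10 to 14 days. The fed group had chow and water without restriction, and the fasting group had no food for 24 h. Equal amounts from the 3 mice of each group were combined, and every tissue and treatment gave 1 library, 16 in all.

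IRG and GBP proteins are GTPases of cell-autonomous immunity. In mouse cells they gather on the vacuoles in which bacteria and protozoa live and help to break these open. Irgm1, Irgm2 and Igtp (also called Irgm3) form the GMS class, which sits on the membranes of the cell and keeps the effector IRG proteins inactive there. Iigp1 and Tgtp2 belong to the GKS class of effectors, which load onto pathogen vacuoles. Gbp2, Gbp3, Gbp6 and Gbp7 are large GTPases that assemble on the same vacuoles and on bacteria. Interferon-gamma, made mostly by T cells and NK cells, induces the genes through elements near their start sites. These are the GAS element and the ISRE, the latter bound by IRF1 and related factors.

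Letter matches to the interferon elements named above stood near the start sites, and the windows that hold them are shown because the members were chosen for a shared change. RefSeq promoters of GRCm38.p6, from 250 bases before to 50 after the start site, were matched for 7 of 10 members. The start sites here are those of RefSeq. Beside the start of the gene model that was counted, they lay within 61 bases for Gbp7, Tgtp2, Igtp, Gbp2 and the nearer of 2 sites of Gbp3, and 263 bases downstream for Irgm1 and 15359 bases downstream for Irgm2. The ISRE was searched as GAAANNGAAA on both strands and the GAS element as TTCNNNGAA, which reads alike on both strands. The windows below run 5′ to 3′ on the strand of the gene, and capitals mark the matched letters.
Igtp, chr11:58199487-58199546: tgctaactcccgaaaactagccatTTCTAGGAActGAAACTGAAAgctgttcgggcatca
Irgm2, chr11:58214878-58214937: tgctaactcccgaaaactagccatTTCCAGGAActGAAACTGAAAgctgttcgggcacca
Tgtp2, chr11:49064258-49064317: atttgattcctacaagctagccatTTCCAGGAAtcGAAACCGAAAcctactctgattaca
Gbp7, chr3:142530248-142530307: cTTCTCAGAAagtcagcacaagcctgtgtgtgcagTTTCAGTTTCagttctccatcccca
Irgm1, chr11:48871428-48871457: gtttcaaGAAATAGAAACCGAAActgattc
Gbp2, chr3:142620594-142620623: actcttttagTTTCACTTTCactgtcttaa
Gbp3, chr3:142559992-142560021: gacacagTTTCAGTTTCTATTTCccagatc

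An ISRE match stood in a promoter of 7 of 7 members, and in Gbp3 in 1 of its 2 promoters. It stood in a promoter of 3.99% of all 27025 genes and in 3.44% of all 32851 promoters of the same length. A GAS match stood in 4 of 7 members, in 9.55% of all genes and in 8.3% of all promoters. Both motifs in 1 promoter stood in 4 of 7 members and in 0.454% of all promoters. In Irgm1 and Gbp3 the match was 2 overlapping ISREs. The GMS genes Igtp and Irgm2 were identical at 58 of 60 bases of the window. Tgtp2 was identical to Igtp at 39 and to Irgm2 at 40 of 60. In these 3 genes the GAS element was followed, after 2 further bases, by the ISRE. This arrangement, whose spacing was chosen after the members were seen, occurred in 5 of 32851 promoters, those of Igtp, Irgm2, Tgtp2, Tgtp1 and Gm12185, and the latter pair are IRG genes too. Of the 9 other IRG and GBP genes with a promoter in the table, 6 held an ISRE. A match of letters is a description of the window and not a measured binding site.

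**Figure D1:**
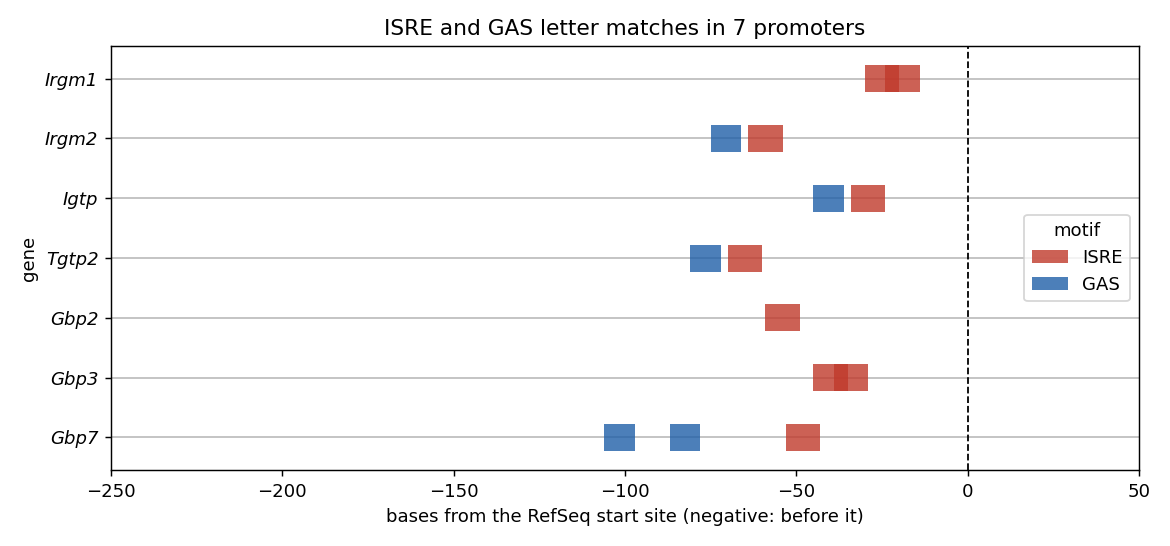
Positions of the ISRE (red) and GAS (blue) letter matches in the 7 promoters, in bases from the RefSeq start site (dashed line). Each promoter shown has an ISRE match within 70 bases before the start site, and Irgm2, Igtp, Tgtp2 and Gbp7 also have a GAS match.

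On GRCm38, 4 members lie on chromosome 11, 3 on chromosome 3, 2 on chromosome 18 and 1 on chromosome 5. Igtp (chr11:58199556-58207591, plus strand) and Irgm2 (chr11:58199618-58222782, plus strand) overlap. They share 8.01% of the exon bases of Igtp and 4.39% of those of Irgm2. Irgm1 (chr11:48861968-48871683) and Tgtp2 (chr11:49057194-49064206) lie on the minus strand, the latter beside its near-identical copy Tgtp1. Gbp7 (chr3:142530342-142550149), Gbp3 (chr3:142560026-142573209) and Gbp2 (chr3:142620602-142638008) stand in a row on the plus strand. Gbp6 (chr5:105270702-105293698, minus strand) shares 29% of its exon bases with the gene model Gm43302, and Gbp7 shares 11.3% with Gm43802. Iigp1 (chr18:60376027-60392634, plus strand) and Gm4841 (chr18:60268305-60273272, minus strand) are neighbours. Reads of close paralogs and of overlapping models could be split between genes by the counting, so the counts of Tgtp2, Igtp, Irgm2, Gbp6 and Gbp7 are uncertain to that degree. The sharing of reads with other IRG and GBP paralogs was not measured for any member.

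The libraries held 14245178 to 36069968 counts, so 3 counts stood for 0.0832 to 0.211 CPM, the count of a gene scaled to the library total. Each list of tissue markers was highest in the tissue its name gives, and adipocyte genes in white adipose. Liver genes summed to 90030 CPM in fed liver, skeletal muscle genes to 117300 CPM in fed muscle, and brown adipocyte genes to 4980 CPM in fed brown adipose. Skeletal muscle genes were also present in brown adipose, at 2001 CPM fed and 942.5 CPM fasting, and heart genes in lung, at 904.2 and 446.6 CPM. In heart the liver genes went from 22.8 to 78.4 CPM, with 3 of 4 higher by the fold and Fisher rule given below. The adipocyte sum there went from 373.6 to 831.7 CPM, although 3 of 4 adipocyte genes had a lower CPM. By the rule 1 adipocyte gene was lower and 1 higher. The lung epithelium sum in heart went from 44.2 to 63.7 CPM, with 2 of 4 genes higher by the rule. Kidney held liver genes at 1245 CPM fed and 1640 CPM fasting, with 2 of 4 lower and 1 higher by the rule. The part of these genes in the values of the members was not tested. No filter on low values was applied within a tissue, and 10 of 10 members passed the filter of the fit across tissues. Gm4841 was the scarcest, with as few as 1 count, and the other 9 had at least 35 counts in each library.

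In the fed state each member had its own order of tissues. Levels of different genes are compared here as CPM per kb of the gene length given in the table. Iigp1 in fed liver had the highest level of all, at 82.9 CPM per kb, and its median over the 8 fed tissues was 14.4. Gbp2 reached 39.5 in fed lung and 36.3 in fed white adipose, and stood at 3.14 and 3.17 in fed muscle and liver. The medians of the GMS genes were 7.14 for Irgm1, 10.6 for Irgm2 and 11.7 for Igtp. Gm4841 had the lowest median, at 0.401 CPM per kb, and its highest level was 3.79 in fed muscle. Gbp6 stayed between 0.502 and 1.497 in the 8 fed tissues.

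**Figure D2:**
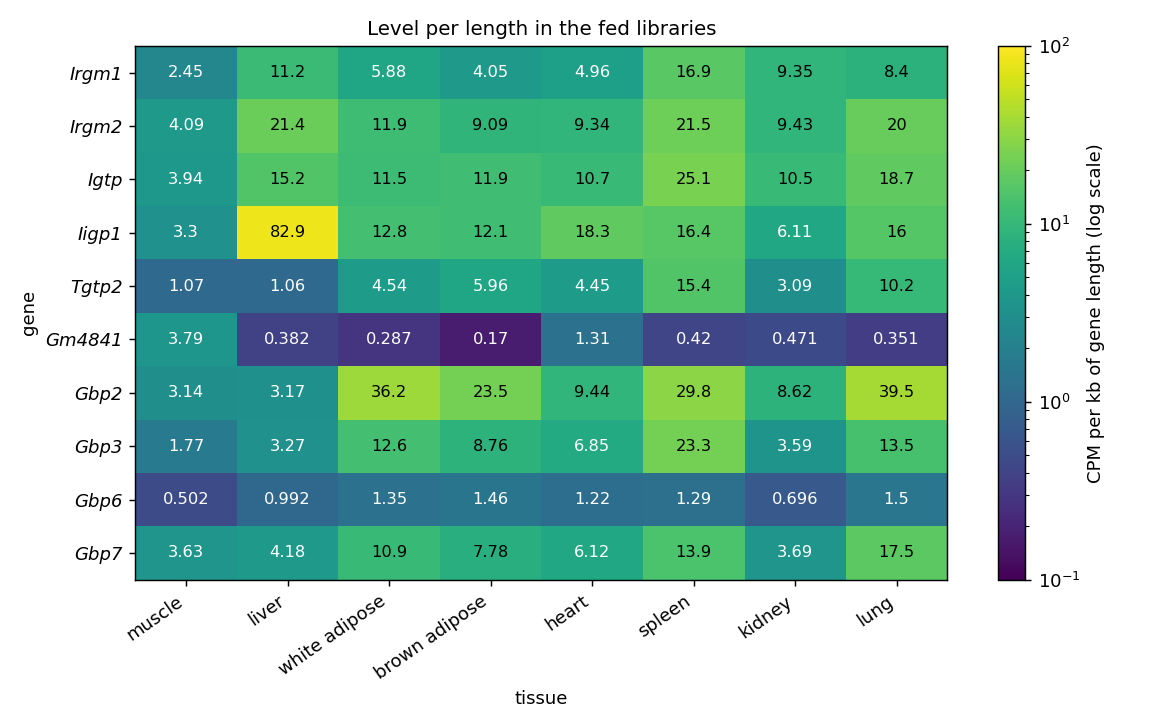
Level of each member (rows) in the 8 fed libraries (columns), in CPM per kb of gene length, coloured on a log scale. Iigp1 in liver stands at 82.9, while Gbp6 and Gm4841 stay under 4 in each tissue.

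The order of tissues within a gene was read from the fed and the fasting library of each tissue as a range. For Iigp1 the order was liver, heart, spleen, lung, brown adipose, white adipose, kidney and muscle. Liver (45.7 to 82.9 CPM per kb) lay above heart (18.3 to 20.1), and heart lay above spleen (10.8 to 16.4), while each later neighbour overlapped with the next. For Gbp2, lung, spleen, white adipose and brown adipose overlapped with their neighbours, and heart (9.44 to 9.64), kidney (5.06 to 8.62) and muscle (2.06 to 3.14) lay apart below them and from each other. Liver, the lowest, overlapped with muscle. For Gbp6 and Gm4841, 7 of 7 neighbouring tissues overlapped. Irgm1 separated best, with 4 of 7 neighbouring pairs apart. These orders depend on the scaling between tissues. With DESeq2 size factors the tissue with the highest fed level was the same for 5 of 10 members, and that of Irgm1, Irgm2, Igtp and Gbp6 became liver and that of Gbp2 white adipose.

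Differences between tissues were not used to choose the members, so each tissue was tested against the mean of the other 7 in an edgeR fit of all 16 libraries. In spleen 7 of 10 members were higher, where 35.1% of all genes tested were higher. The largest of these differences were those of Tgtp2, by 1.91 (SE 0.171, adjusted p = 1.96e-06), and of Gbp3, by 1.88 (SE 0.195, adjusted p = 6.32e-06) on the log2 scale. In liver 4 of 10 were higher against 27.0% of all genes, namely Iigp1 and the GMS class, and with library totals alone 3 without Igtp. Iigp1 was higher there by 3.72 (SE 0.193, adjusted p = 2.25e-08), and Irgm2, Irgm1 and Igtp by 1.502, 1.39 and 1.12. In the same tissue 2 of 10 were lower, against 24.8% of all genes, namely Gbp2 by -1.72 (SE 0.236, adjusted p = 8.29e-05) and Tgtp2 by -1.44 (SE 0.239, adjusted p = 0.000351). With DESeq2 or with library totals alone this became 4, with Gbp3 and Gbp7.

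Muscle had 6 of 10 members lower than the mean of the other tissues, where 25.0% of all genes were lower. Gm4841 went the other way and was higher in muscle by 4.12 (SE 0.411, adjusted p = 7.22e-06), from 259 counts fed and 63 counts fasting. In lung 3 of 10 were higher (Gbp2, Tgtp2 and Gbp7), against 30.6% of all genes, and with library totals alone this became 7. Irgm1 (-0.29, adjusted p = 0.0297) and Gm4841 (-1.65, adjusted p = 0.0436) were lower in lung. In kidney 5 of 10 were lower (Irgm2, Iigp1, Gbp2, Gbp3 and Gbp7), against 19.3% of all genes, and with DESeq2 this became 8. Irgm1 was higher in kidney by 0.41 (SE 0.0937, adjusted p = 0.00359). In heart Iigp1 was higher by 1.35 (SE 0.226, adjusted p = 0.000576) and Gbp6 by 1.23 (SE 0.341, adjusted p = 0.0131). In white adipose Irgm1, Irgm2, Igtp, Iigp1 and Tgtp2 were lower, 5 of 10 against 18.4% of all genes, and with library totals alone 0 were. In brown adipose Irgm1 and Irgm2 were lower, 2 of 10 against 17.9% of all genes. Gbp2 was higher in both, by 0.95 and 0.81. These p-values rest on the fed and the fasting library of a tissue as its replicates, and both come from pools of mice.

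During fasting, most members were lower in most tissues. Over the 80 pairs of a member and a tissue, 74 had a lower CPM in the fasting library. Of the 80, 54 were lower by the rule of the study's methods, a log2 fold change beyond 0.5 and p under 0.01 by Fisher's exact test on the 2 libraries, and 0 were higher by it. Over all genes with a count, the rule held as lower for 6.15% of 220804 pairs of gene and tissue. With 1 library per treatment this rule compares 2 libraries and not the conditions. Fold changes are on the scale of log2(CPM + 0.01). The value just inside the limit was that of Irgm2 in heart, at -0.50, and the value just outside it that of Gbp7 in lung, at -0.46.

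**Figure D3:**
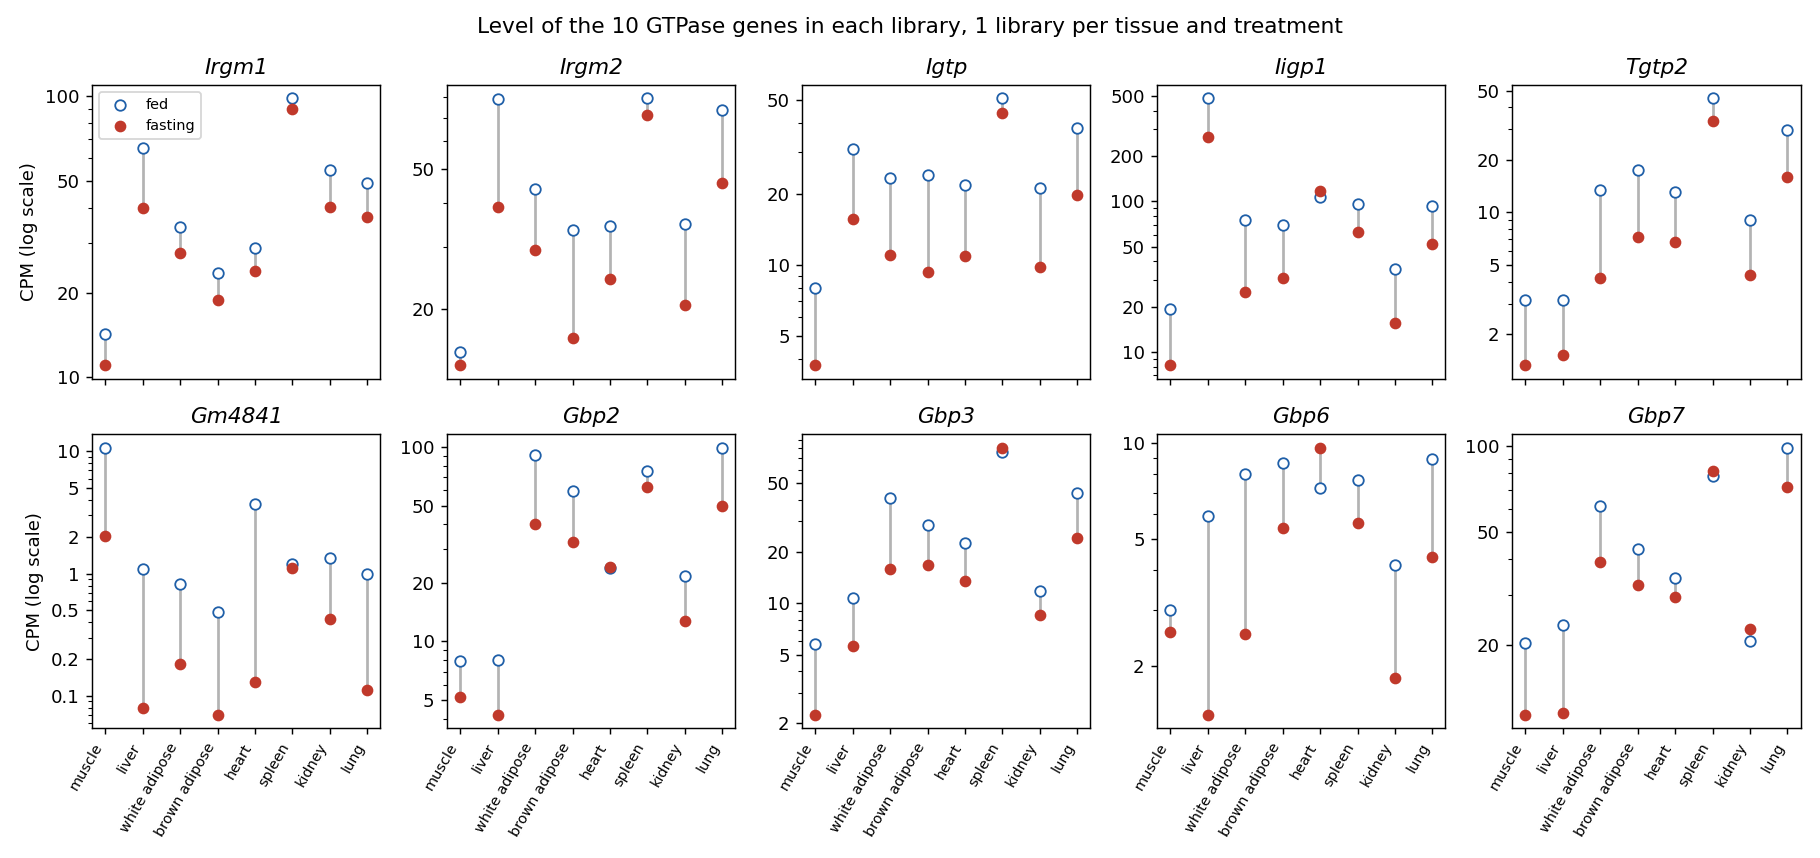
Level of the 10 members in each library, in CPM on a log axis, with open circles for fed and filled circles for fasting and 1 library per point. The filled circle is below the open one in 74 of 80 pairs, and the distance is small in spleen.

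The count of members lower by the rule differed between the tissues. Liver had 10 of 10, where the rule held for 9.52% of all genes with a count. White adipose had 9 (5.84% of all genes) and lung 8 (6.49%). Brown adipose had 7 (7.58%), kidney 7 (3.93%) and muscle 7 (9.39%). Heart had 5 (5.80%), which became 4 without Irgm2 under TMM factors, DESeq2 size factors or a pseudocount of 1 CPM, and spleen had 1, Iigp1 (1.62%). Nothing is read from these counts against the background, since the members were chosen on the same contrast. The summed level of the 10 members in fasting stood at 49.8% of the fed sum in white adipose, 54.2% in liver and 54.9% in brown adipose. It was 87.6% in spleen and 87.7% in heart. In spleen the members were high under both conditions, with sums of 607.2 CPM fed and 531.8 CPM fasting.

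The median log2 fold change of the 10 members was -1.28 in white adipose, -1.0 in liver, -0.96 in muscle, -0.95 in brown adipose, -0.92 in kidney, -0.89 in lung, -0.39 in heart and -0.19 in spleen. Over all genes with at least 1 CPM in either library, the median lay between -0.14 in muscle and 0.07 in white adipose. Scaling by TMM factors moved log2 fold changes up by 0.13 in liver and down by 0.12 in white adipose, and by less than 0.1 in the other tissues. None of the members that were lower by the rule changed direction under these factors.

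**Figure D4:**
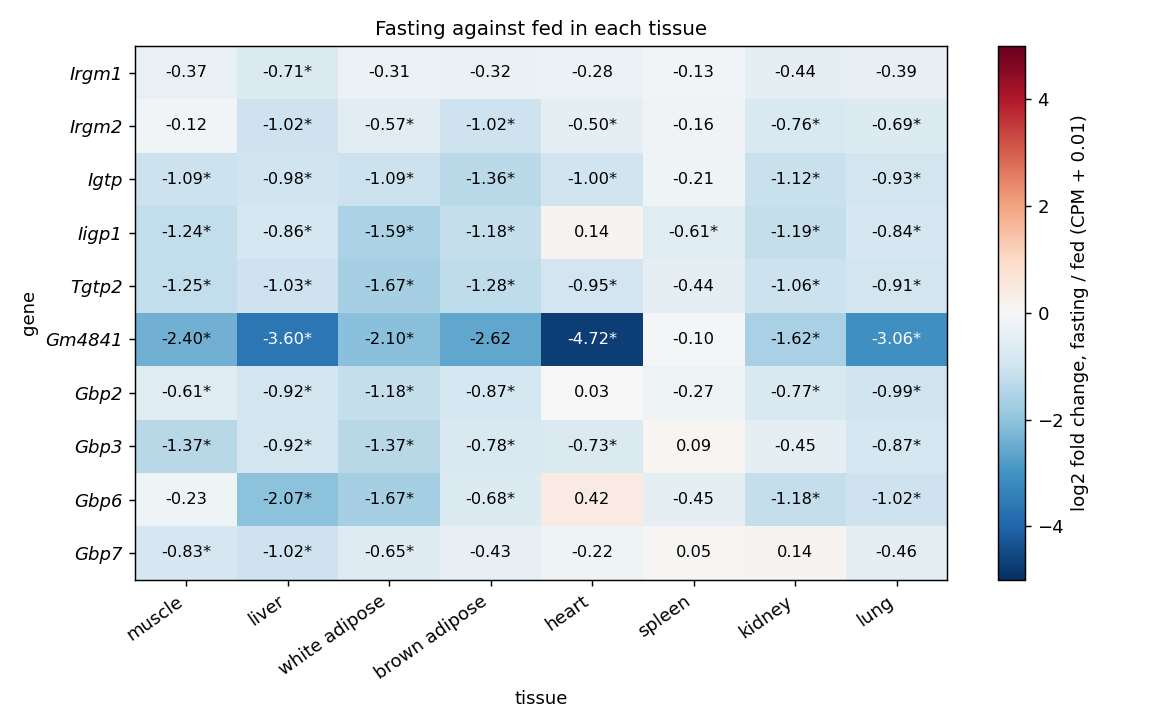
Log2 fold change of fasting over fed for each member (rows) in each tissue (columns), with blue for lower and red for higher in fasting. Asterisks mark the 54 pairs lower by the fold and Fisher rule, which include 10 of 10 in liver and 1 of 10 in spleen. The rule held as lower for 6.15% of all pairs of gene and tissue.

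Of the GMS regulators, Igtp had the largest change. In the fed libraries it lay between 7.98 CPM in muscle and 50.7 CPM in spleen, with a median of 23.7. In the fasting libraries it lay between 3.75 and 43.8 CPM, with a median of 10.9. In 7 tissues the log2 fold change lay between -0.93 (lung) and -1.36 (brown adipose), whether the gene was high or low there. Spleen was the other, at -0.21 with a 95% counting interval of -0.33 to -0.09.

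Irgm2, the Golgi-bound regulator that shares a locus with Igtp, was lower by the rule in 6 tissues. Its fed libraries ranged from 15.1 to 79.4 CPM with a median of 39.3, and its fasting libraries from 13.8 to 71.0 CPM with a median of 26.9. The log2 fold change was largest in brown adipose (33.5 to 16.5 CPM, -1.02) and liver (79.0 to 39.1 CPM, -1.02). In muscle, where Igtp went from 7.98 to 3.75 CPM, Irgm2 went from 15.1 to 13.8 CPM. The pair with promoter windows of near-identical sequence had log2 fold changes of -1.09 and -0.12 in muscle.

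Irgm1, which also acts in autophagy and in haematopoietic cells, had the smallest median change, at -0.34. Its fed libraries lay between 14.3 CPM in muscle and 98.0 CPM in spleen, with a median of 41.5, and its fasting libraries between 11.02 and 89.7 CPM, with a median of 32.4. It was lower in 8 of 8 tissues, with log2 fold changes between -0.71 in liver and -0.13 in spleen. Only liver, where it went from 65.1 to 39.8 CPM, passed the fold of the rule.

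Among the effectors, Iigp1 had the highest counts. In liver it went from 483 to 266 CPM (11122 to 6638 counts), a log2 fold change of -0.86 with a counting interval of -0.90 to -0.82. In white adipose it went from 74.7 to 24.8 CPM, at -1.59 its largest change. In muscle it went from 19.2 to 8.15 CPM and in kidney from 35.6 to 15.6 CPM. In spleen it went from 95.6 to 62.7 CPM, at -0.61 the single member lower by the rule there. Heart stood apart. The level there was 106.6 CPM fed and 117.1 CPM fasting, a log2 fold change of 0.14 with an interval of 0.04 to 0.23.

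Tgtp2 was lower in 8 of 8 tissues and by the rule in 7. Its fed libraries ranged from 3.13 CPM in liver to 45.1 CPM in spleen, with a median of 13.2, and its fasting libraries from 1.33 to 33.2 CPM, with a median of 5.55. The log2 fold change lay between -1.67 in white adipose, from 311 to 115 counts, and -0.44 in spleen. Its near-identical neighbour Tgtp1 also had a lower CPM in 8 of 8 tissues, with 135 and 46 counts in white adipose and 135 and 132 in lung. How reads were divided between the copies is not known, so their values are not independent of each other.

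Gm4841, a predicted IRG gene without a well-described function, had the largest fold changes on the fewest counts. In muscle it went from 259 to 63 counts (10.8 to 2.04 CPM), a log2 fold change of -2.40 with an interval of -2.82 to -2.0. In heart it went from 64 to 2 counts, in liver from 25 to 2 and in lung from 30 to 4. The interval was -7.90 to -2.91 in heart and -6.88 to -1.76 in liver, so the size of these changes is loosely bound by the counts. With a pseudocount of 1 CPM the values became -2.06 in heart, -0.95 in liver and -1.95 in muscle. In brown adipose the counts were 8 and 1, and the interval of -8.25 to 0.12 included 0. In spleen 27 and 31 counts gave -0.10 with an interval of -0.89 to 0.70.

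The GBP genes split by tissue. Gbp2 went from 99.3 to 49.99 CPM in lung and from 91.2 to 40.1 CPM in white adipose, the tissues where its fed CPM was highest. In fasting it was highest in spleen, at 62.4 CPM. In heart it stood at 23.8 and 24.3 CPM, a log2 fold change of 0.03 with an interval of -0.18 to 0.24. Its fed median was 41.4 CPM and its fasting median 28.3 CPM.

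Gbp3 went from 41.0 to 15.9 CPM in white adipose and from 5.77 to 2.23 CPM in muscle, both at -1.37. In heart, unlike Gbp2, it went from 22.4 to 13.4 CPM, at -0.73. In spleen it stood at 76.1 CPM fed and 80.9 CPM fasting, at 0.09 with an interval of -0.003 to 0.18, and its fasting library there was the highest of all 16.

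Gbp6 had the widest spread of the GBP genes. It went from 136 to 35 counts in liver (5.91 to 1.40 CPM, -2.07) and from 187 to 69 counts in white adipose (-1.67). In heart it went from 125 to 148 counts (7.26 to 9.70 CPM), a log2 fold change of 0.42 with an interval of 0.06 to 0.77. In muscle the counts were 72 and 79, with an interval of -0.71 to 0.25. Gbp7 had the smallest median change of the GBP genes, at -0.44. It was lower by the rule in liver (23.5 to 11.6 CPM, -1.02), muscle (20.4 to 11.4 CPM, -0.83) and white adipose (61.4 to 39.2 CPM, -0.65). In kidney it stood at 20.7 and 22.9 CPM, and in spleen at 78.3 and 81.3 CPM.

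When the 8 tissues were fitted together in edgeR, with tissue as a block, the fitted log2 fold changes ranged over the members from -0.33 for Irgm1 to -2.24 for Gm4841. They were -1.02 for Tgtp2, -0.92 for Igtp, -0.88 for Iigp1, -0.81 for Gbp6, -0.75 for Gbp3, -0.66 for Gbp2, -0.57 for Irgm2 and -0.38 for Gbp7. The SE, worked back from the fitted value and the F statistic of the fit, was lowest for Irgm1, at 0.0648, and highest for Gm4841, at 0.411. The median over all 23580 genes tested was -0.01.

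The same fit gave values for genes of the pathway outside the members. The lists of these genes were also chosen with earlier results of these data known, so their counts and p-values are not independent evidence of a direction. Over all genes tested, 198 fell, which is 0.840%. Of 15 other IRG and GBP genes, 4 fell and 0 rose, and the median was -0.76. Those that fell were the IRG genes Gm12250 (-1.10, SE 0.231, adjusted p = 0.0406), Tgtp1 (-0.99, SE 0.218, adjusted p = 0.0464) and Ifi47 (-0.79, SE 0.145, adjusted p = 0.0271), and the IRG-related gene F830016B08Rik (-0.76, SE 0.165, adjusted p = 0.0459). The fitted values were -0.70 for Gbp4 (adjusted p = 0.0508) and -0.62 for Gbp5 (adjusted p = 0.111), both lower in 8 of 8 tissues. Tgtp1 shares reads with the member Tgtp2, so its call also rests on reads that may belong to a member. All 15 genes had a fitted value below 0. At an unadjusted p under 0.05, 12 of 15 were lower, against 10.3% of all genes tested. Without heart, lung, kidney or brown adipose 0 of 15 passed in edgeR, with 10 to 11 at an unadjusted p under 0.05, and without muscle, liver or white adipose 1 to 2 passed.

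Ifng itself, the gene of the cytokine, was near the limit of detection. It had 0 to 2 counts per library outside spleen and lung, 7 and 4 counts in lung, and 18 and 7 counts in spleen (0.795 and 0.252 CPM). In spleen it was lower by the rule, at -1.62 with an interval of -3.16 to -0.33, the only gene of the signalling list that was. It did not pass the filter of the fit. Of 12 genes of interferon-gamma signalling tested, 3 fell and 0 rose, with a median of -0.26, and 8 of 12 had a fitted value below 0. Those that fell were Irf1, which encodes a transcription factor that interferon-gamma induces (-0.48, SE 0.0655, adjusted p = 0.00911), and the genes of the MHC transactivators Ciita (-0.74, SE 0.134, adjusted p = 0.0253) and Nlrc5 (-0.70, SE 0.118, adjusted p = 0.02). Each was lower in 8 of 8 tissues. Irf1 went from 34 to 20.6 CPM in liver and from 216.2 to 170.3 CPM in spleen. Ifngr1, which encodes a chain of the interferon-gamma receptor, had a fitted value of 0.35 (SE 0.115, adjusted p = 0.135) and a higher CPM in 7 of 8 tissues. In brown adipose it went from 114.2 to 244.4 CPM and was higher by the rule. At an unadjusted p under 0.05, 6 genes of this list were lower and 1 was higher. Without muscle, brown adipose, heart or lung 1 gene of the list passed as lower. Ifngr1 and Gbp8 are named here after their values were seen.

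Of 20 other interferon-gamma targets, 6 fell and 0 rose, with a median of -0.50. The chemokine gene Cxcl9 had the largest change (-1.16, SE 0.159, adjusted p = 0.00922), and it was lower by the rule in spleen too, from 38.6 to 21.2 CPM. Cd274, which encodes PD-L1, fell by 0.82 (SE 0.172, adjusted p = 0.0414). The other 4 belong to antigen processing, namely the immunoproteasome genes Psmb8, Psmb9 and Psmb10, at -0.50, -0.55 and -0.56, and the peptide transporter gene Tap1, at -0.50. Cxcl10 had a fitted value of -0.73 (SE 0.234, adjusted p = 0.139). Without brown adipose or lung 2 of these targets passed, and without muscle or heart 3. Of 14 genes better known for type I interferon, 2 fell and 0 rose, Bst2 (-0.64, SE 0.105, adjusted p = 0.019) and Irf7 (-0.38, SE 0.0824, adjusted p = 0.0434), with a median of -0.36. Without muscle, brown adipose or heart 0 of the 14 passed in edgeR, with 7 to 9 lower at an unadjusted p under 0.05, and without liver, white adipose, kidney or lung, or without a filter on low counts, 1 passed. Within single tissues some genes of the 3 lists went the other way by the rule. The type I gene Rsad2 was higher in spleen (51.5 to 97.2 CPM) and brown adipose (25.7 to 55.5 CPM), and Ifit2 in heart (22.8 to 33.2 CPM). The target Ubd was higher in white adipose, from 28 to 147 counts (2.15), and the signalling genes Jak1 and Socs3 in heart, by 0.61 and 1.43. These 5 genes are named after their values were seen. Whether the lists differ from each other was not tested.

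**Figure D5:**
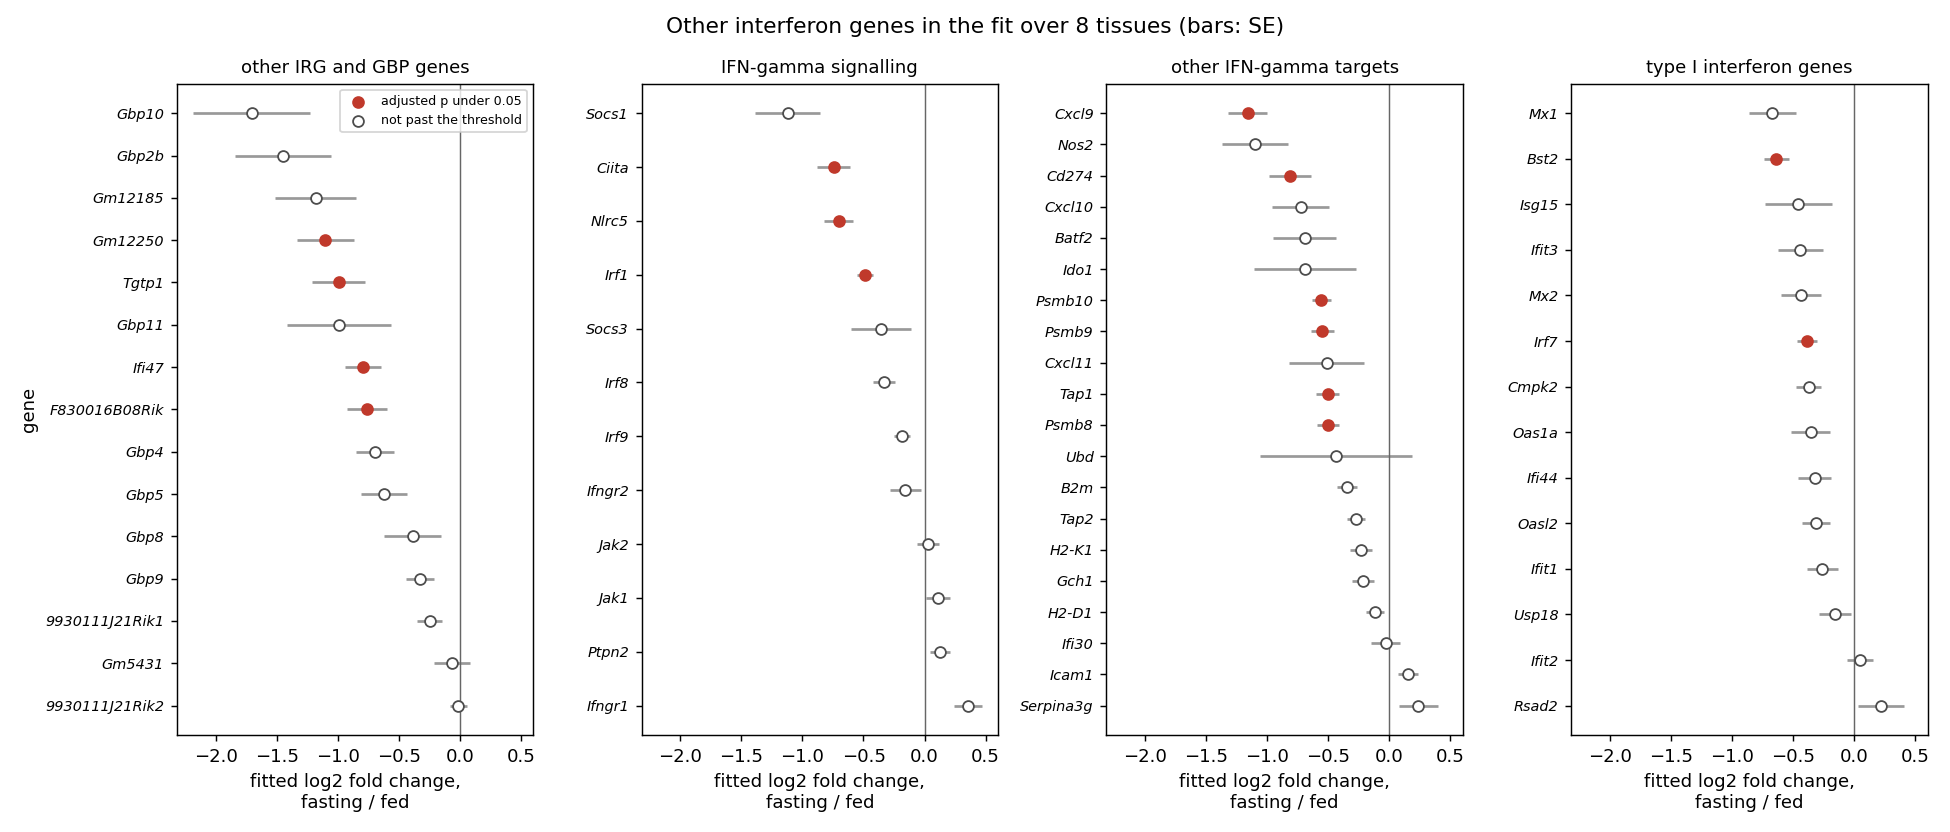
Fitted log2 fold change of fasting over fed across 8 tissues for the genes of 4 interferon lists that hold no member, with bars for the SE and filled points for adjusted p under 0.05 in edgeR. The filled points, 4, 3, 6 and 2 from left to right, all lie below 0.

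Within tissues, the other IRG and GBP genes were lower by the fold and Fisher rule in 11 of 15 in liver (9.52% of all genes), 10 in white adipose (5.84%), 10 in lung (6.49%) and 0 in spleen (1.62%). In heart (5.80% of all genes) and brown adipose (7.58%) 6 of 15 were lower, and in muscle (9.39%) and kidney (3.93%) 5. Gbp8 was higher by the rule in white adipose, from 52 to 109 counts (0.83), and the list had no other such gene in any tissue. The median log2 fold change of this list was -0.96 in liver, -0.97 in lung and -0.06 in spleen. All these comparisons share the same 2 libraries per tissue with those of the members.

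Markers of T cells, NK cells and B cells were lower in fasting in some tissues. In a bulk sample, fewer cells of a type and less RNA per cell cannot be told apart. The 8 T cell markers summed to 106.0 CPM in fed and 30.4 CPM in fasting lung, where 8 of 8 were lower by the rule. The 8 NK cell markers summed to 67.9 and 34.6 CPM there, also with 8 of 8 lower, and the 6 B cell markers to 388.4 and 202.9 CPM with 6 of 6 lower. In white adipose the T cell sum was 14.9 and 8.39 CPM, the NK cell sum 13.4 and 8.20 CPM, and the B cell sum 348.0 and 84.4 CPM. There 4 of 8 T cell markers had a lower CPM, with 1 lower by the rule, 7 of 8 NK cell markers, with 4 by the rule, and 5 of 6 B cell markers, with 2 by the rule. In brown adipose the T cell sum was 8.91 and 7.30 CPM, with 6 of 8 markers at a lower CPM and 0 lower by the rule. The NK cell sum there was 6.20 and 2.74 CPM, with 6 of 8 markers at a lower CPM and 2 lower by the rule. The rule held as lower for 6.49% of all genes with a count in lung, 5.84% in white adipose and 7.58% in brown adipose.

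In liver, muscle, heart and kidney the T cell sum was under 6 CPM in each library, and 0 of 8 T cell and 0 of 8 NK cell markers were lower by the rule. The NK cell sum went from 2.21 to 0.917 CPM in heart, where 6 of 8 markers had a lower CPM, from 0.249 to 0.453 CPM in muscle and from 2.36 to 2.29 CPM in kidney. In fed muscle 3 of 8 T cell and 4 of 8 NK cell markers were at 0. Liver went from 5.17 to 3.93 CPM in T cell markers, with 5 of 8 at a lower CPM. Its NK cell markers went from 3.82 to 2.24 CPM, with 6 of 8 at a lower CPM. In spleen the T cell sum was 476.6 and 464.3 CPM and the NK cell sum 174.9 and 161.4 CPM. The 8 macrophage markers, led by Mrc1 and Csf1r, stood at 278.7 and 254.4 CPM in liver, 924.7 and 915.1 CPM in white adipose and 399.7 and 398.9 CPM in lung. Of these 8 markers 7, 5 and 6 had a lower CPM, 0 were lower by the rule in these 3 tissues, and 1 was higher by it in white adipose and 1 in lung. In heart and kidney 1 macrophage marker was lower by the rule and 1 higher, and in spleen the sum went from 1484 to 1925 CPM with 2 higher. The 7 endothelial markers went from 315.8 to 248.5 CPM in muscle, from 1144 to 926 CPM in heart and from 1296 to 1116 CPM in white adipose, with 2 of 7 lower by the rule in each. In brown adipose their sum went from 1010 to 986.6 CPM, with 2 lower and 1 higher by the rule. It was 251.7 and 217.5 CPM in liver, 3598 and 3283 CPM in lung, 491 and 496.2 CPM in kidney and 501.5 and 555.1 CPM in spleen. There 1 marker was lower by the rule in lung and 0 in liver, kidney and spleen. The B cell sum went from 19.1 to 11.4 CPM in brown adipose, with 2 of 6 lower by the rule, and from 31.3 to 20.4 CPM in heart, with 1 of 6. The part of the markers of lymphocytes, macrophages and endothelium in the values of the members was not tested.

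The genes whose fasting response over the 8 tissues was most like the mean of the members were looked up among 14996 other genes with at least 1 CPM in 8 or more libraries, with a pseudocount of 1 CPM. Ube2l6, the conjugating enzyme of the interferon-induced modifier ISG15, had the highest Pearson correlation, at 0.952. Nr2f1 (0.943), Olfml1 (0.939), Tal1 (0.914) and Gm4459 (0.91) followed. The correlation follows the order of the tissues and not the size of the change, since Ube2l6 ranged from -0.80 to 0.70 and Nr2f1 from -0.23 to 0.25. The 8 points share 2 pools of mice, and no p-value is given.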

How the data were processed

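Short-read RNA-Seq of 8 mouse tissues under fasting and fed conditions gave 1 library each, 16 in all. The authors made stranded libraries, read them as pairs of 100 bases, used fastp 0.23.2 for trimming, FastQC 0.11.8 for read quality and HISAT2 2.2.1.0 for alignment (GRCm38), and deposited unnormalized counts per gene (featureCounts, Subread 2.0, GENCODE release 24) with the gene length (an other value, not a measurement). The strand setting and the treatment of multimapping reads are not given in the sources used here. Identifiers were matched to symbols of GENCODE release 21 for 55144 of 55385 genes.

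The members and gene lists were chosen with earlier results of these data known. Within a tissue, CPM on library totals gave the fold change, and Fisher's exact test compared the counts (two-sided: log2 fold change beyond 0.5 with a pseudocount of 0.01 CPM, unadjusted p under 0.01), as in the study's methods. Across tissues, edgeR 4.0.16 (R 4.3.3) was run with TMM factors, filterByExpr, tissue and treatment as terms, the quasi-likelihood test and Benjamini-Hochberg adjustment over 23580 genes, with 7 residual degrees of freedom. All 8 tissues stem from 2 pools, fed and fasting, so tissues are not separate animals and p-values measure the spread between tissues. Both steps were tested on simulated data. Each SE of the edgeR fit is the size of the fitted value divided by the square root of its F statistic. Counting intervals are exact (Clopper-Pearson, 95%) and cover counting error only.

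The genes named are the 10 members, the pathway genes that passed the test (at most 6 per list) with fixed others, the 5 genes most like the members, and the 2 highest markers of a list, except a gene that is not reported here. Alternatives were a pseudocount of 1 CPM, TMM or DESeq2 1.42.0 factors, a minimum of 1 CPM, an adjusted p, a total without the 10 highest genes, a log2 fold change beyond 1, DESeq2's Wald test, library totals alone, no filter, no tissue block, each tissue left out, and the fed libraries alone. A filter by treatment and the removal of lung and white adipose were chosen after seeing the data. Direct RNA and chromatin data were not used here. Scripts ran in Python 3.11.15 with scipy 1.17.1, pandas 2.3.3, numpy 2.4.6 and matplotlib 3.10.9.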

Additional observations from a re-analysis of the deposited data

Results flagged for a closer look

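Heart was higher in fasting, with a counting interval above 0, for 2 members that were lower by the fold and Fisher rule elsewhere. Iigp1 was lower by that rule in 7 tissues and stood at 0.14 on the log2 scale in heart, from 1836 counts fed and 1787 counts fasting, with a counting interval above 0. Gbp6 was lower by the rule in 5 tissues and stood at 0.42 in heart, from 125 and 148 counts. Gbp2 also stood above 0 in heart and below 0 in the other 7 tissues, at 0.03 with an interval that included 0. Neither Iigp1 nor Gbp6 passed the rule as higher, each rests on 1 library per treatment, and the difference between the tissues was not tested. In the same heart libraries the summed liver genes went from 22.8 to 78.4 CPM. The summed adipocyte genes went from 373.6 to 831.7 CPM, although 3 of 4 of them had a lower CPM, and 1 was lower and 1 higher by the rule. The part of these genes in the heart values was not tested. There Igtp, Tgtp2, Gbp3, Irgm2 and Gm4841 were lower by the rule, and Irgm2, at -0.50, was not under TMM factors, DESeq2 size factors or a pseudocount of 1 CPM.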

How the results depend on the processing

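Among 320 alternative values of a member in a tissue, 0 reversed direction for a pair that was lower by the rule and 16 moved out of the counting interval, and among 130 fitted values of a member across tissues 0 reversed and 4 moved by more than 1 SE. Without lung and white adipose, chosen after seeing the data, 37 of 60 pairs of member and tissue were lower by the rule, a description only. Over all genes with a count the share in the same tissues was 6.15% of 159747 pairs. Of 234 fitted values of pathway genes 0 reversed and 76 fell below the threshold. A log2 fold change beyond 1 lowered the members counted as lower to 7 in white adipose, 5 in liver, 5 in muscle, 5 in kidney, 4 in brown adipose, 2 in lung, 1 in heart and 0 in spleen. For the fit across tissues, the genes counted as lower were 198 of 23580 in edgeR, 980 with DESeq2's Wald test, 394 with library totals alone, 303 without a filter, 359 with a filter by treatment and 0 without the tissue block (45 at an unadjusted p under 0.05). With DESeq2 the other IRG and GBP genes gave 8, the signalling genes 5 and the type I genes 4, and without a filter the type I genes gave 1. Without the block each of the 4 lists gave 0, with 2 other IRG and GBP genes and 0 of the other lists at an unadjusted p under 0.05. With a tissue left out, the counts were 0 to 6 for other IRG and GBP genes, 1 to 4 for signalling, 2 to 7 for other targets, 0 to 2 for type I genes and 24 to 227 for all genes, lowest without brown adipose for all genes. Between tissues, members lower in liver became 4 with DESeq2 and 4 with library totals, members higher in lung 7 with totals, members lower in kidney 8 with DESeq2, and members lower in white adipose 0 with totals. The cause of these shifts was not tested. The values of Gm4841 in heart, liver, lung and brown adipose are limited by 1 to 4 fasting counts.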
